A study of Mus musculus with 8 samples.

Results

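The cytosolic ribosome of the mouse is built from proteins encoded by a set of genes scattered over the genome, and 80 of the 21951 protein-coding genes in the GENCODE annotation of mm10 were examined here as its members. They were chosen by symbol alone: an Rpl or Rps name with a number and at most 1 closing letter a, x, y or l, together with Rplp0, Rplp1, Rplp2 and Rpsa. The set held 49 genes for the large (60S) subunit and 31 for the small (40S) subunit, and included the 4 paralogs Rpl10l, Rpl39l, Rpl3l and Rps27l. A member was counted as having a promoter peak when the centre of a ChIP-Seq peak lay within 1000 bp of any annotated transcript start, and as having a locus peak when the centre lay in the gene body or within 20 kb of it.

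The peaks came from X18.1.1, a cell line grown from a radiation-induced acute myeloid leukaemia of the mouse that has lost 1 copy of Pu.1 and carries a mutated second copy. The PU.1− cells were a clonal line with the empty vector (EV), so their PU.1 protein was mutant only, and the PU.1+ cells were a clonal line with PuER, wild-type PU.1 fused to an oestrogen receptor domain that 4-hydroxytamoxifen (OHT) activates. The PU.1+ cells carried the mutant protein as well, both lines were given 100 nM OHT for 2 h, and each condition was represented by 1 clone. Chromatin was immunoprecipitated for PU.1 or for CEBPA, with 1 library for each antibody and line.

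For PU.1 the lists contained 5288 (PU.1−) and 15683 (PU.1+) peaks, and for CEBPA 26119 and 20583. All peaks were 400 bp wide and came without heights or read counts, so the depth of each library is unknown. With 1 library per antibody and line, a difference between the lines has no replicate check and no p-value is given. Shares carry 95% intervals by the exact Clopper-Pearson method, which describe counting error alone. Expression was not measured in these libraries. Peaks were also counted at the loci of 7 myeloid genes (Spi1, Cebpa, Itgam, Adgre1, Kit, Mpo and Csf3r), which is not a measure of cell type. All 7 had a CEBPA locus peak in both lines (all genes 56.5% in PU.1− and 51.3% in PU.1+). A PU.1 locus peak was present at 3 in PU.1− (9.90 to 81.6%, all genes 23.7%) and at 6 in PU.1+ (42.1 to 99.6%, all genes 41.4%).

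Ribosomal protein genes are expressed in every cell, at high and matched levels, because the proteins are needed in equal numbers in each ribosome. Their promoters lack a consensus TATA box, are often rich in CpG, and frequently carry sites for general activators such as the ETS factor GABP, SP1 and YY1. PU.1 is itself an ETS factor, which prefers purine-rich sequence before the shared GGAA core, and CEBPA is a basic leucine zipper factor of granulocytes and monocytes.

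Sequence at the PU.1 peaks of ribosomal protein promoters showed the ETS core in several settings. Of the 14 promoter peaks of PU.1−, 5 had the letters GGAAGT on either strand in the central 80 bp (35.7%). The share was 38.4% of the promoter peaks of all genes. In the central 200 bp 11 of the 14 had them (78.6%, 49.2 to 95.3), beside 55.6% over all genes. The sites nearest to the peak centre are printed below for 9 of these genes, because they show how the bases before the core vary. Each is read 5′ to 3′ on the strand of the gene from the mm10 reference, with GGAAGT (or its reverse complement) in capitals, over 60 bases, or over 30 where the stretch touched an annotated exon.
Rplp1, chr9:61914645-61914704, minus strand: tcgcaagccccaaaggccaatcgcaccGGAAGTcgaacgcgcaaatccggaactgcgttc
Rps25, chr9:44407631-44407660, plus strand: acccattgccccGGAAGTactctctcgagg
Rpl37, chr15:5116565-5116624, plus strand: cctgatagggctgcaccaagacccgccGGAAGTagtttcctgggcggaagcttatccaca
Rpl26, chr11:68901560-68901589, plus strand: acttacagaaccGGAAGTcgcgtgtagttc
Rpl36a, chrX:134585462-134585521, plus strand: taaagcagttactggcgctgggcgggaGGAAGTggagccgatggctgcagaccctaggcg
Rps3, chr7:99483638-99483667, minus strand: cgcccgcgagccACTTCCtttcctttcagc
Rps21, chr2:180257400-180257429, plus strand: gaggcacgagctACTTCCtttctgcgctct
Rpl28, chr7:4792726-4792785, plus strand: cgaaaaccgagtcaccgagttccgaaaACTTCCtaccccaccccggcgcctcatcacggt
Rps19, chr7:24884293-24884352, plus strand: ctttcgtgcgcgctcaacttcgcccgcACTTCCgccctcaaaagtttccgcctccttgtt
In Rplp1, Rps25, Rpl37 and Rpl26 the core was preceded by CC, which gives CCGGAAGT, the form favoured by GABP. In Rpl36a it was preceded by GA, which gives GAGGAAGT, the form favoured by PU.1. In Rps3 and Rps21 the strand that reads GGAAGT has GAAA before it, which is purine-rich as well. On that strand the core follows TA in Rpl28 and GC in Rps19. The core lay 7 bp from the peak centre in Rps21, 8 bp in Rpl36a, 22 bp in Rps25, 24 bp in Rps3 and 30 bp in Rplp1, and further from it in the other 4, up to 90 bp in Rpl28. In Rps19 the same site lay 81 bp downstream of the centre of the PU.1− peak and 83 bp upstream of that of the PU.1+ peak.

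PU.1 peaks were found at the promoters of 14 of the 80 members in PU.1− (17.5%, 95% interval 9.91 to 27.6) and of 3 in PU.1+ (3.75%, 0.780 to 10.6). Over all protein-coding genes the shares were 6.8% in PU.1− and 8.19% in PU.1+. The members' share was thus above that of all genes in the shorter PU.1 list and below it in the longer one, where the interval included the value of all genes. Ribosomal protein genes often have CpG-rich starts, and among the 9069 genes of the genome with such a start 10.3% had a PU.1 promoter peak in PU.1− and 9.76% in PU.1+. Among the 56 members with a CpG-rich start, 11 (19.6%, 10.2 to 32.4) had one in PU.1− and 2 (3.57%, 0.435 to 12.3) in PU.1+. The interval of all 80 members in PU.1− included the 10.3% of genes with CpG-rich starts, and that of the 56 did so narrowly. The part that base composition has in the members' share was not tested.

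**Figure D1:**
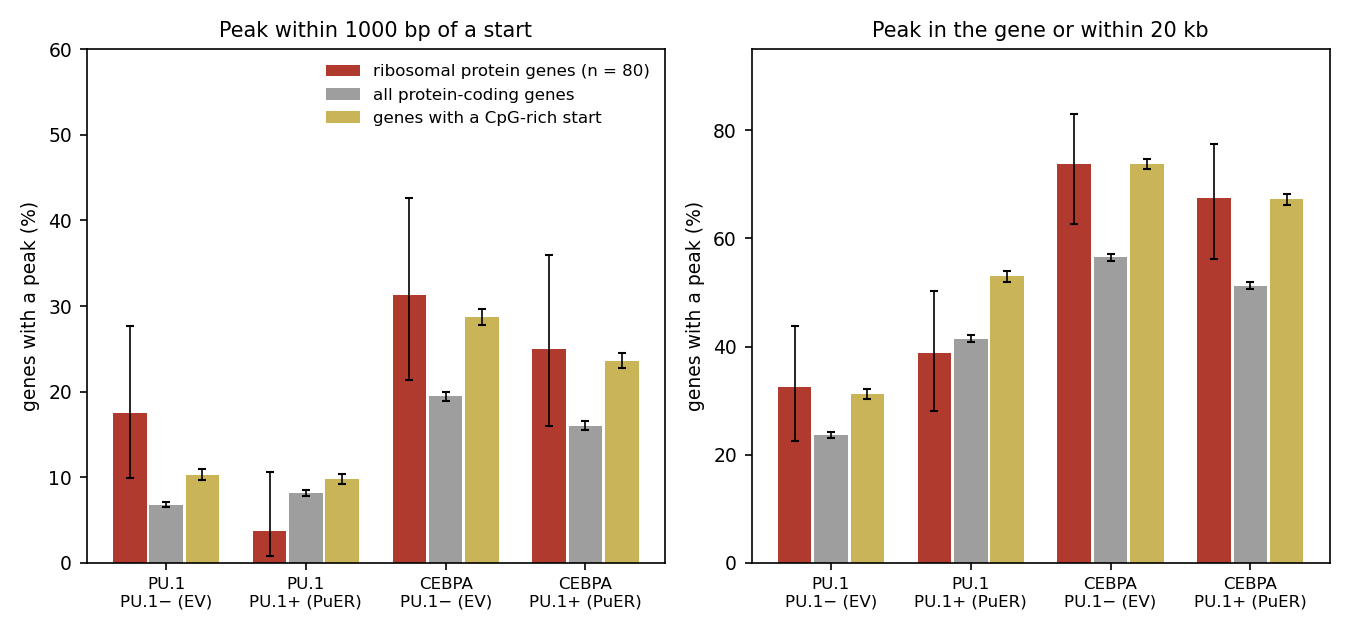
Share of genes with a peak (%) by antibody and line, for peaks within 1000 bp of a start (left) and in the gene or within 20 kb (right). Bars show the 80 ribosomal protein genes, all protein-coding genes and genes with a CpG-rich start, and error bars show exact 95% intervals. For promoter PU.1 peaks the ribosomal protein genes stand at 17.5% in PU.1− and 3.75% in PU.1+, on opposite sides of the bars for all genes.

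The 14 members with a PU.1 promoter peak in PU.1− encode proteins of both subunits, 8 large and 6 small. Distances here are to the nearest annotated start of the gene. The peak centre fell on such a start of Rpl35a. It lay 6 bp downstream of a start of Rps3, whose protein lines the mRNA entry site, and 8 bp downstream of a start of Rps25. It lay 11 bp upstream of a start of Rps21, 12 bp upstream of Rpl18 and 28 bp upstream of Rpl28. Rpl26 followed at 58 bp, Rpl37 at 101 bp and Rplp1, a stalk protein, at 102 bp upstream. Other centres lay upstream as well, at 130 bp in Rps19, 134 bp in Rps14, 171 bp in Rpl36a and 821 bp in Rpl11. From the start of the principal coding transcript the centre lay downstream in Rps21 (30 bp), Rpl35a (46 bp), Rps3 (110 bp) and Rps25 (529 bp). In 13 of the 14 the centre was under 200 bp from a start, so that the peak covered it. The median distance was 43 bp, and 8 of the 14 (57.1%) lay within 100 bp of a start, against 54.3% of the 1405 promoter peaks of all genes in the same list. At 3 of the 14, a neighbouring gene starts within the same 1000 bp: Sphk2 beside Rpl18, Iqcg beside Rpl35a and Trappc4 beside Rps25. These peaks cannot be assigned to either gene of the pair.

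**Figure D2:**
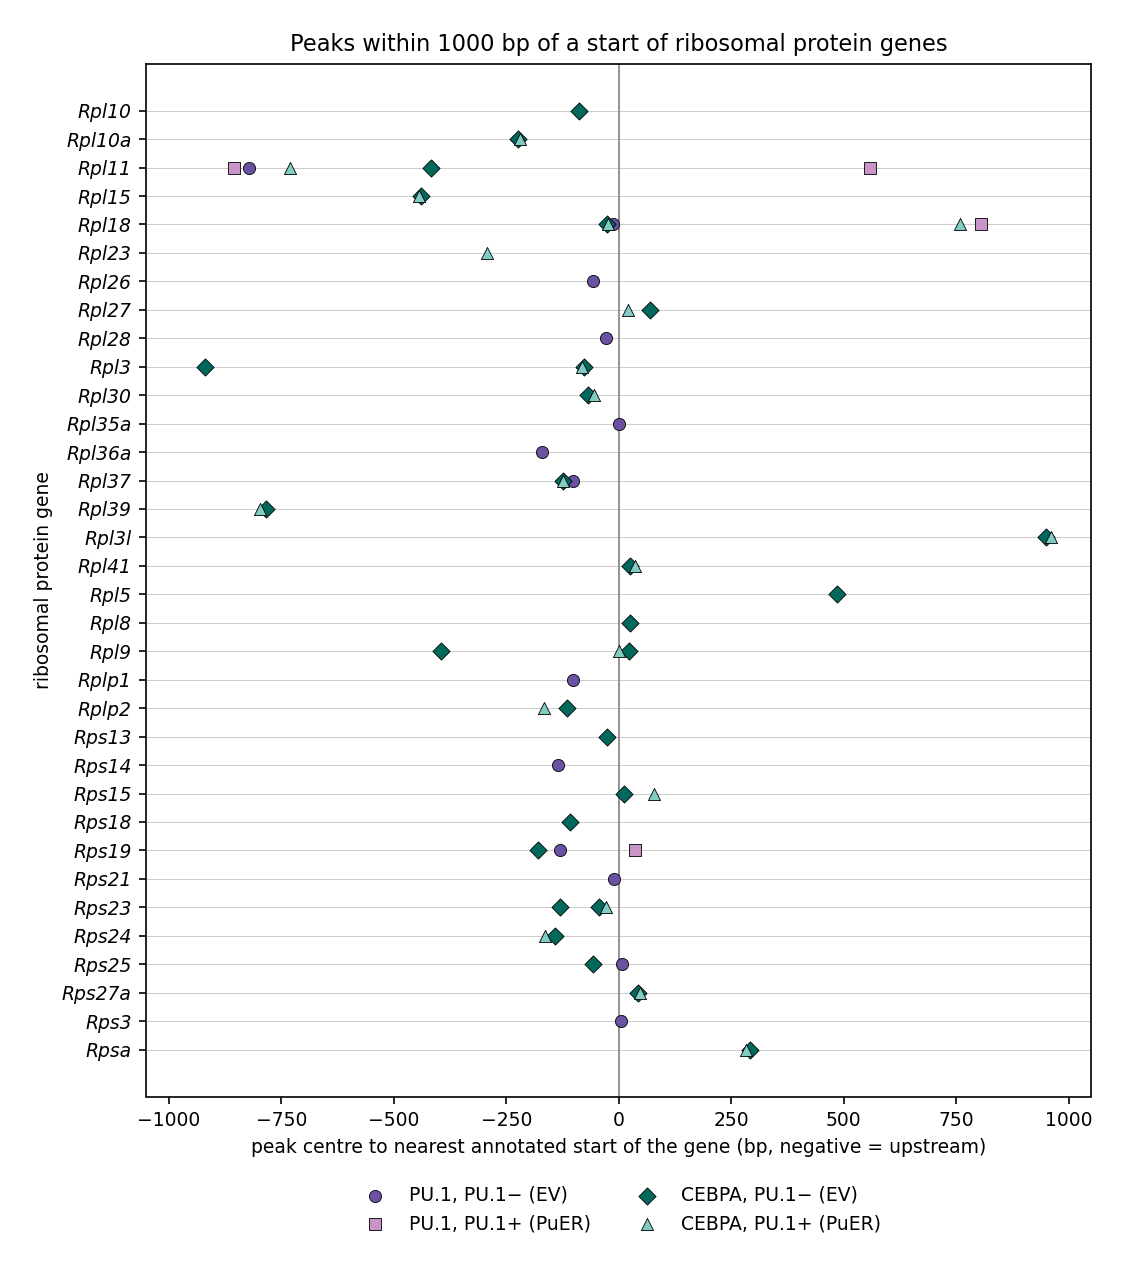
Distance (bp) from the peak centre to the nearest annotated start, negative upstream, for 34 of the ribosomal protein genes with a promoter peak in any list. Each symbol is 1 peak, with shape and colour for antibody and line. The PU.1 peaks of PU.1− gather just upstream of the start, and the 4 PU.1 peaks of PU.1+ lie at Rpl11, Rpl18 and Rps19.

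Across the lines, 11 members had a PU.1 promoter peak in PU.1− only, 3 in both and 0 in PU.1+ only. Over all genes these classes held 3.96%, 2.84% and 5.35%. A count of 0 of 80 allows a share of up to 4.51%. Most of the peaks of PU.1− did not overlap a PU.1+ peak, which also held for 887 of the 1405 promoter peaks of all genes. Of the 14, 2 overlapped a PU.1+ peak (14.3%, 1.78 to 42.8), against 518 of the 1405 promoter peaks of all genes (36.9%, 34.3 to 39.5). The members' interval included the value of all genes. The overlapping pairs were those at Rpl11, with centres 33 bp apart, and at Rps19, 165 bp apart. For the other 12 the nearest PU.1+ peak centre was 1797 bp away at Rpl18, 2357 bp at Rpl36a and 8038 bp at Rpl37. The median over the 12 was 28635 bp, with a maximum of 60247 bp at Rps21. These distances have no value over all genes beside them. Without heights, absence from a list is not a measured absence of binding.

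The 3 members with a PU.1 promoter peak in PU.1+ differed in what the peak marked. Rps19, the gene most often mutated in Diamond-Blackfan anaemia, had its peak 35 bp inside the start. Rpl18 had the peak 805 bp inside its outermost annotated start. The peak centre was 1809 bp upstream of the start of the principal coding transcript of Rpl18. Rpl11, whose protein joins Rpl5 and 5S RNA in a particle that can bind Mdm2, had a peak 854 bp upstream and a second 559 bp downstream of a minor start near its 3′ end. These peaks lay 23741 bp and 25154 bp downstream of the start of the principal coding transcript. The second of them was centred on a GAGGAAGT site, printed here because it is the only PU.1-type sequence in the central 80 bp of the 4 PU.1+ promoter peaks, with GGAAGT in capitals.
Rpl11, chr4:136028228-136028257, minus strand: ggaagtagaagaGGAAGTggctggtggcaa
When promoters were counted only from the start of the principal coding transcript of each gene, a definition chosen after these positions were seen, PU.1 promoter peaks remained at 13 members in PU.1− (all genes 5.43%) and at 1 in PU.1+, Rps19 (all genes 5.14%). The member that dropped out in PU.1− was Rpl11. Rps14, whose loss on 1 chromosome copy marks the human 5q- syndrome, has an annotated body that begins far upstream, and its PU.1− peak lay 134 bp before the principal start.

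CEBPA promoter peaks were more numerous at the members and were mostly kept between the lines. In PU.1− 25 of 80 had one (31.3%, 21.3 to 42.6; all genes 19.4%), and in PU.1+ 20 of 80 (25%, 16.0 to 35.9; all genes 16%). These shares were close to the 28.7% and 23.6% of genes with a CpG-rich start. The classes were 7 members in PU.1− only (all genes 4.88%), 18 in both lines (14.6%) and 2 in PU.1+ only (1.49%). From the principal start the counts were 22 in PU.1− (all genes 14.6%) and 17 in PU.1+ (12.1%). Of the 28 CEBPA promoter peaks of PU.1−, 18 overlapped a peak of PU.1+ (64.3%, 44.1 to 81.4), beside 71.8% of the promoter peaks of all genes. The centres of these 18 pairs differed by a median of 12 bp, and 14 differed by 25 bp or less. At Rpl37 both lines had the peak at the same position, 123 bp upstream of the start. At Rpsa, which encodes a small-subunit protein also known as the laminin receptor, the centres lay 291 bp and 282 bp downstream of a start. At Rps27a, which encodes a fusion of ubiquitin with a small-subunit protein, they lay 42 bp and 48 bp downstream of a start, near that of Clhc1. The same centres lay 207 bp and 201 bp upstream of the principal start of Rps27a. At the stalk gene Rplp2 they lay 115 bp and 166 bp upstream.

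The 7 members with a CEBPA promoter peak in PU.1− only were Rpl10, Rpl5, Rpl8, Rps13, Rps18, Rps19 and Rps25. Rpl10, an X-linked gene whose protein is added late in the assembly of the 60S subunit, had it 89 bp upstream of the start, and the nearest peak of PU.1+ was 15978 bp away. Rps19 had it 180 bp upstream, with the nearest of PU.1+ 14980 bp away. Rpl5, the partner of Rpl11 in the 5S particle, had it 486 bp inside an alternative start that lies within the gene, and 4098 bp from the 5′ end. Among the members with a CEBPA promoter peak in PU.1+ only was Rpl23, at 293 bp upstream. The nearest CEBPA peak of PU.1− was 33092 bp from it.

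A CEBP site (TTGCNNAA on either strand) stood in the central 80 bp of 7 of the 28 CEBPA promoter peaks of PU.1− (25%, 10.7 to 44.9) and of 8 of the 21 of PU.1+ (38.1%). Over all promoter peaks the shares were 27.9% and 30.9%. GGAAGT was present in the same window of 4 of the 28 peaks of PU.1− (14.3%), beside 10.1% over all genes, and of 0 of the 21 of PU.1+ (up to 16.1%), beside 10.6%. Among the members, 6 had such a site in the peaks of both lines. The sites of 5 of these are printed on the gene strand with the CEBP site in capitals, since they mark where CEBPA peaks lay in both lines.
Rpsa, chr9:120128139-120128168, plus strand: catggccgcctTTGCGCAActctcggtgca
Rpl10a, chr17:28328207-28328266, plus strand: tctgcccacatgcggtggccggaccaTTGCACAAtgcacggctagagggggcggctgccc
Rpl15, chr14:18271812-18271871, minus strand: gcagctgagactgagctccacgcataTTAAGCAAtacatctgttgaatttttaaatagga
Rpl39, chrX:37086143-37086202, minus strand: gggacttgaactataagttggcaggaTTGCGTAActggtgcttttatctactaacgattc
Rps23, chr13:90924106-90924165, plus strand: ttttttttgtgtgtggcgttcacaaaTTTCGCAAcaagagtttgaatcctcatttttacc
Rpsa had the palindromic TTGCGCAA, 18 bp from the centre in PU.1− and 27 bp in PU.1+. In Rps23 the site lay 4 bp and 20 bp from the centres, and in Rpl10a 11 bp and 15 bp. These Rps23 peaks were counted from an alternative start, and lay 1182 bp (PU.1−) and 1198 bp (PU.1+) downstream of the principal start. The Rps23 CEBPA peak 131 bp upstream of the principal start was listed in PU.1− only.

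Both factors had promoter peaks at 5 members in PU.1− (Rpl11, Rpl18, Rpl37, Rps19 and Rps25; all genes 3.47%) and at 2 in PU.1+ (Rpl11 and Rpl18; all genes 3.5%). In PU.1− the PU.1 and CEBPA centres were 15 bp apart at Rpl18, 22 bp at Rpl37, 50 bp at Rps19 and 65 bp at Rps25, and the peaks overlapped. At Rpl11 they were 403 bp apart and did not. Thus 4 of the 14 PU.1 promoter peaks overlapped a CEBPA peak (28.6%, 8.39 to 58.1), beside 38.6% over all genes. In PU.1+ the centres were 124 bp apart at Rpl11 and 47 bp at Rpl18. Any promoter peak, of either factor and line, was present at 36 members (33.8 to 56.5%, all genes 27%). Genes with a CpG-rich start stood at 39.2%, inside that interval.

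Grouped by role, the stalk was represented by Rplp1 with PU.1 in PU.1− only, by Rplp2 with CEBPA in both lines, and by Rplp0 with no promoter peak. In the 5S particle Rpl11 had peaks of both factors at its minor start, and Rpl5 had CEBPA in PU.1− only. Of a list of 11 Diamond-Blackfan anaemia genes, which does not hold every gene linked to the disease, 4 had a PU.1 promoter peak in PU.1− (Rps19, Rpl35a, Rpl26 and Rpl11; 10.9 to 69.2%, all genes 6.8%) and 2 in PU.1+ (Rps19 and Rpl11; 2.28 to 51.8%, all genes 8.19%). From the principal start the counts were 3 and 1. The large and small subunits had similar shares in PU.1−, at 16.3% of 49 and 19.4% of 31. Of the 4 paralogs, whose expression is known to be more restricted than that of the parent genes in the case of the muscle gene Rpl3l and the testis genes Rpl10l and Rpl39l, Rpl3l alone had a promoter peak. It was a CEBPA peak 949 bp and 961 bp inside an alternative start in PU.1− and PU.1+, over a coding exon.

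The starts of the members shared sequence that the choice by symbol did not use. From 250 bp before to 50 bp after the 5′ end of the gene, 40 of 80 held GGAAGT on either strand (50%, 38.6 to 61.4), against 24.8% of all protein-coding genes. The longer forms, which are contained in this core, were also counted. CMGGAAGT, where M is A or C, was present in 23.8% of members and 7.86% of all genes, and CCGGAAGT in 17.5% and 4.70%. GAGGAAGT was present in 2.5% and 3.23%. AAGATGGC, the YY1 sequence, was present in 6.25% and 2.92%, CACGTG in 13.8% and 7.75%, and GGGCGG, the SP1 sequence, in 45% and 43.0%. TTGCNNAA was present in 8.75% and 10.5%, and TGYGGT, where Y is C or T, in 20% and 21.8%. The members' intervals for AAGATGGC (lower bound 2.06%) and CACGTG (7.07 to 23.3) included the value of all genes. The start was CpG-rich, with a GC content of at least 55% and an observed-to-expected CpG ratio of at least 0.65 within 250 bp, in 56 members (70%) and in 41.3% of all genes. Among all genes with a CpG-rich start, GGAAGT was present in 2357 of 9069, CMGGAAGT in 10.9%, CCGGAAGT in 8.76%, AAGATGGC in 4.75%, CACGTG in 11.6% and GGGCGG in 75.5%. Against these the members' shares of the first 3 were still higher, with intervals above them, and their share of GGGCGG was lower (33.8 to 56.5). The sets are unlike here, because the members' shares are of all 80 and not only of the 56 with a CpG-rich start. The GGGCGG share also depends on the start used. From the principal start it was 52.5% of members (41.0 to 63.8), beside 45.4% of all genes. A C followed by at least 4 pyrimidines within 5 bp of the annotated 5′ end was present in 22 members (27.5%) and 19.0% of all genes. Such a tract marks the transcripts of ribosomal protein genes, and annotated ends often lie upstream of the main start, so this count depends on the annotation. From the principal start the tract was present in 33.8% of members and in 3925 of 21853 genes with such a start and sequence, and GGAAGT in 48.8% and 24.9%.

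**Figure D3:**
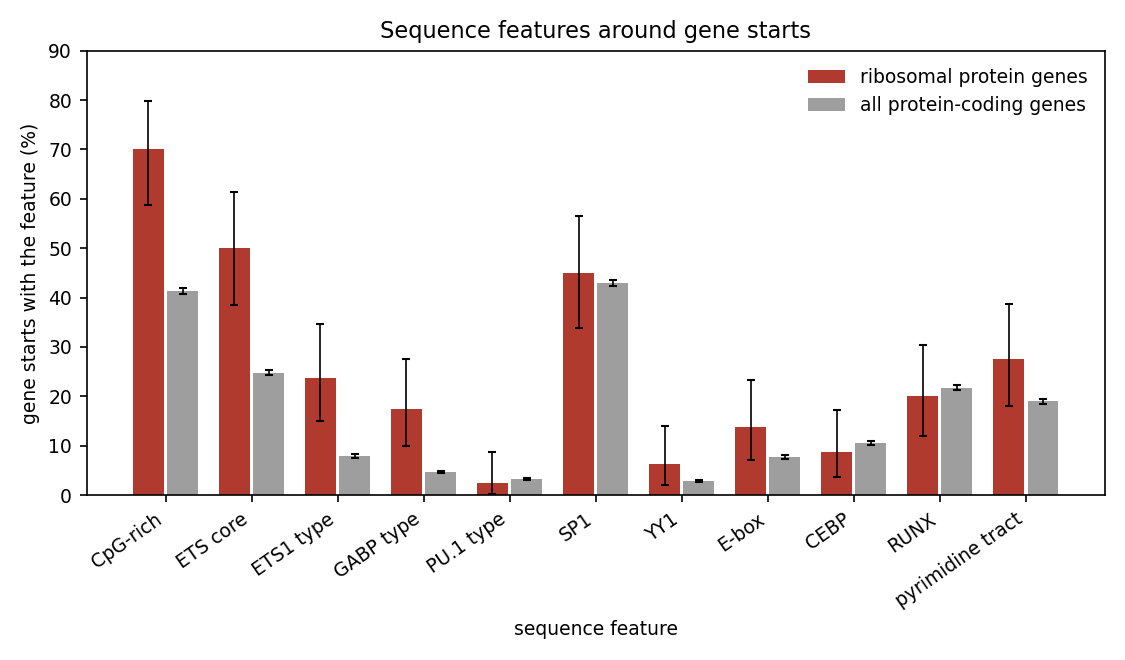
Share of gene starts (%) that hold each sequence feature, for the 80 ribosomal protein genes and all protein-coding genes, with exact 95% intervals as error bars. The ETS core stands at 50% against 24.8% and its GABP type at 17.5% against 4.70%, while the PU.1 type is at 2.5% against 3.23%.

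PU.1 promoter peaks of PU.1− were present at 10 of the 40 members with GGAAGT in this window (25%, 12.7 to 41.2) and at 4 of the 40 without it (10%, 2.79 to 23.7). The intervals overlap. Over all genes the shares were 11.5% with the core and 5.24% without it. In PU.1+ the counts were 2 of 40 and 1 of 40. Within the peaks themselves, the central 80 bp held GGAAGT in 5 of the 14 PU.1− peaks (35.7%, 12.8 to 64.9), against 38.4% of the 1405 promoter peaks of all genes. It held CCGGAAGT in 2 of 14, at Rplp1 and Rps25, against 4.70% of all, and GAGGAAGT in 1 of 14, at Rpl36a, against 8.11%. GGGCGG was present in 5 of 14 against 24.2%, and AAGATGGC in 2 of 14 (1.78 to 42.8%), at Rpl35a and Rps3, against 1.21%. TTGCNNAA was found in 0 of 14, which allows a share of up to 23.2%, against 4.13% of all. In the central 200 bp, GGAAGT was present in 11 of 14 (78.6%) against 55.6%. With 14 peaks the intervals are wide and include the value of all promoter peaks for the letters above, except AAGATGGC in the central 80 bp. In the central 200 bp AAGATGGC was again in 2 of 14, against 2.56% of all, a value inside the interval. For GGAAGT in the 200 bp window the interval ran from 49.2 to 95.3.

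Around the genes, 26 members had a PU.1 locus peak in PU.1− (32.5%, 22.4 to 43.9; all genes 23.7%) and 31 in PU.1+ (38.8%, 28.1 to 50.3; all genes 41.4%). For CEBPA the counts were 59 in PU.1− (73.8%; all genes 56.5%) and 54 in PU.1+ (67.5%; all genes 51.3%). Genes with a CpG-rich start stood at 31.2% and 53.0% for PU.1 and at 73.7% and 67.2% for CEBPA. The members' CEBPA shares were close to these, and their PU.1 share in PU.1+ was below, with an interval that did not include 53.0%. The locus window includes the gene body and so is wider for longer genes. None of these shares was matched for gene length, and its part in the differences was not tested. A peak in at least 1 list was present at 71 members (79.7 to 94.7%, all genes 65.5%). Genes with a CpG-rich start stood at 83.0%, inside that interval. The 9 without any included Rpl10l, Rpl31, Rpl37a, Rpl39l, Rps26, Rps4x and Rps6. Rps6 is the target of the S6 kinases, and Rps26 is a Diamond-Blackfan anaemia gene.

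The place of the peaks within these loci was counted next. In PU.1− 14 of the 31 distinct locus peaks lay at a member's own start (45.2%), 6 at the start of another gene and 11 away from starts (35.5%). In PU.1+ 4 of 46 lay at a member's own start (8.70%), 9 at that of another gene and 33 away from starts (71.7%). Peaks at the start of any protein-coding gene thus made up 64.5% (45.4 to 80.8) in PU.1− and 28.3% (16.0 to 43.5) in PU.1+, beside 32.5% and 15.5% of the locus peaks of all genes, where the share was also lower in PU.1+. For CEBPA the own-start peaks were 28 of 118 in PU.1− (23.7%) and 21 of 92 in PU.1+ (22.8%). The PU.1 peaks overlapped between lines at 9 positions, which is 9 of the 31 in PU.1− (14.2 to 48.0%) and 19.6% of the 46 in PU.1+, beside 54.4% and 19.4% of the locus peaks of all genes. CEBPA peaks overlapped at 81, which is 68.6% of 118 and 88.0% of 92, beside 69.7% and 88.5%.

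**Figure D4:**
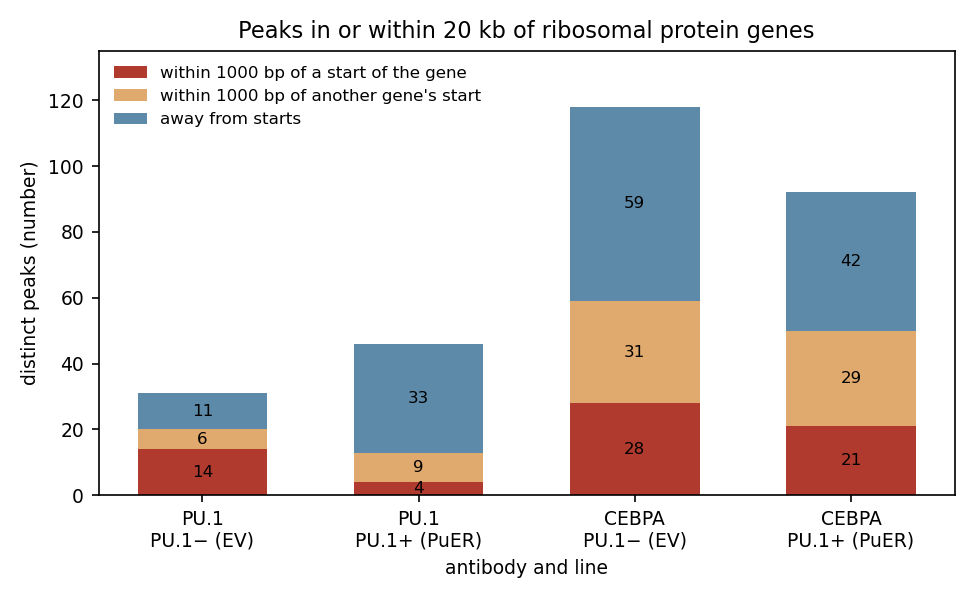
Number of distinct peaks in or within 20 kb of the ribosomal protein genes, by antibody and line, divided by place. PU.1 peaks at the genes' own starts number 14 in PU.1− and 4 in PU.1+, while those away from starts number 11 and 33.

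The members with the most locus peaks over the 4 lists were Rpl3l with 13, Rpl11 and Rps14 with 12 each, Rpl37 with 11 and Rpl18 with 10. At Rpl3l, a neighbour of Rps2 with which it shares 7 of the peaks, PU.1− had 1 PU.1 peak, PU.1+ had 4, and each line had 4 CEBPA peaks. The PU.1 peaks of both lines and the CEBPA peaks of both lines overlapped at a position 9855 bp to 9907 bp past the nearest start. At Rpl11 PU.1− had 1 PU.1 peak, PU.1+ had 5, and each line had 3 CEBPA peaks. At Rps14 the PU.1 peaks numbered 2 and 4, respectively, with 3 CEBPA peaks in each line. The peak 2284 bp upstream of the Rps14 gene in PU.1− was matched in PU.1+ at 2308 bp, while the peak at its principal start was not. At Rpl37 a PU.1 peak 8140 bp upstream, at the start of Card6, was present in both lines, while the promoter peak was present in PU.1− only. In Rpl37 and Rps14 the PU.1 peaks shared between the lines thus lay outside the ribosomal protein promoter. At Rpl18 there was 1 PU.1 peak in each line and 4 CEBPA peaks in each.

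Other housekeeping lists were set beside the members, with promoter PU.1 peaks counted in the same way. Genes of the mitochondrial ribosome had 10 of 77 in PU.1− (6.41 to 22.6%) and 6 in PU.1+ (7.79%). Proteasome genes had 8 of 49 (16.3%, 7.32 to 29.7) and 6 (12.2%), and respiratory chain genes 10 of 94 (10.6%, 5.22 to 18.7) and 4 (4.26%). Translation factors had 5 of 25 (20%) and 3 (12%). Ribosome assembly genes had 5 of 19 (26.3%) and 7 (36.8%, 16.3 to 61.6). From the principal start the assembly genes had 2 of 19 in PU.1− (10.5%) and 1 in PU.1+ (5.26%), so that their order between the lines turned with the starts that were counted. From that start the intervals of all these lists overlapped that of the members in either line. Of 7 genes of cytosolic ribosomal proteins or their paralogs whose names fall outside the symbol rule, 1 had a PU.1 promoter peak in PU.1− and 2 in PU.1+.

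**Figure D5:**
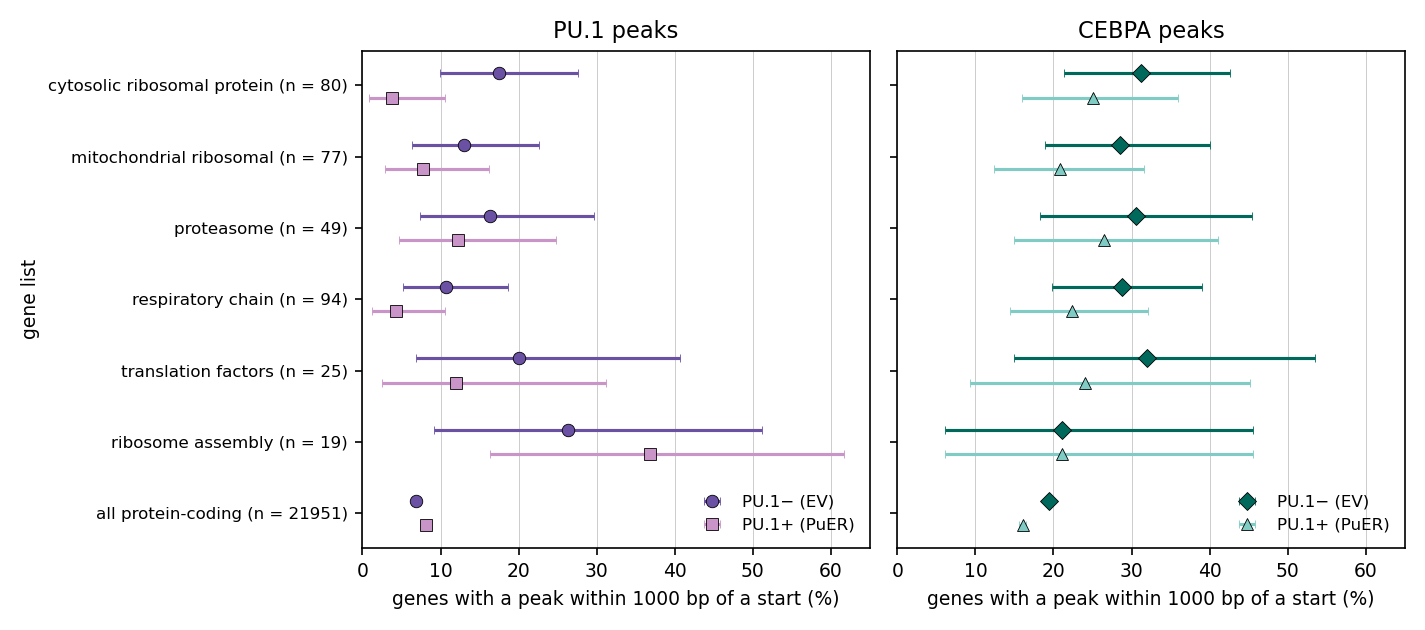
Share of genes (%) with a PU.1 (left) or CEBPA (right) peak within 1000 bp of a start, for 6 gene lists and all protein-coding genes, in PU.1− and PU.1+. Error bars are exact 95% intervals. For PU.1 the cytosolic ribosomal protein genes go from 17.5% to 3.75%, and the ribosome assembly genes stand at 26.3% and 36.8%, or at 10.5% and 5.26% from the principal start, which is not plotted.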

How the data were processed

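PU.1 and CEBPA ChIP-Seq was carried out in 1 EV (PU.1−) and 1 PuER (PU.1+) clonal line of X18.1.1, both after 2 h in 100 nM OHT. The authors mapped reads to mm10 and called peaks, with Bowtie2 2.0.6 and MACS2 2.0.10 named in the submitters' processing notes, and deposited peak intervals (start and end), with no counts, scores or heights. The calling threshold and the source of the 400 bp width are not given in the sources used here. The text of the study also mentions time 0, whereas the labels give 2 h for both lines. H3K27Ac and IgG samples were not used here.

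Peak centres were placed against GENCODE M21 genes, and sequences were read from the RefSeq copy of GRCm38. Motifs were exact matches on either strand. Intervals were exact (scipy 1.17.1, Python 3.11.15, pysam 0.24.0, matplotlib 3.10.9). The steps were tested on simulated peaks and motifs with known answers. There was 1 library per condition, so nothing was tested between lines. Genes without reference sequence (13, mitochondrial) were left out of sequence counts. The principal start was that of the coding transcript with the best APPRIS tag and then support level.

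Genes named are those with a PU.1 promoter peak in PU.1+, the 10 with the PU.1− peak nearest to a start, the 5 with the most locus peaks, those with a CEBPA promoter peak in PU.1+ only, those with no peak, and Rpsa, Rplp0, Rplp1, Rplp2, Rpl5, Rpl11, Rps14, Rps19, Rps26, Rpl10 and Rps27a. Rps14, Rpl36a, Rpl8, Rps13, Rps18, Rpl10a, Rpl15, Rpl39 and Rps23 complete a count or carry a printed sequence and were added after their values were seen. The members and lists were chosen with earlier results of these data known. Alternatives were other starts, promoter and locus distances, overlap rules, motif windows and the set without paralogs. Some genes that this rule selects are not reported here, though they stay in the counts.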

Additional observations from a re-analysis of the deposited data

How the results depend on the processing

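Of 122 alternative values over 24 counts and shares, 88 stayed within 1.5 times the main count or within the 95% interval of the main share, and 34 moved beyond it. With 1 library per group, no library could be left out and no paired analysis was possible because no test was made.

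The PU.1+ promoter counts, which rest on 3 genes, moved most. Members with a PU.1 promoter peak in PU.1+ numbered 1 within 500 bp, 9 within 2500 bp and 1 from the principal start, a setting chosen after seeing the data. Members with one in both lines numbered 1 at the gene 5′ end, within 500 bp, from the principal start and with centres within 100 bp, and 5 within 2500 bp. Members with one in PU.1+ only numbered 1 at the gene 5′ end and by peak overlap of 1 bp or 50%, 2 with centres within 100 bp and 4 within 2500 bp. Both factors in PU.1+ gave 1 at the gene 5′ end, from coding transcripts and with centres within 100 bp, 0 within 500 bp and from the principal start, and 4 within 2500 bp. Both factors in PU.1− gave 3 at the gene 5′ end. CEBPA in PU.1+ only gave 1 within 500 bp, and in PU.1− only 11 within 2500 bp. The count of 14 for PU.1 in PU.1− ranged from 11 to 16.

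Locus counts moved with distance, to 43 for PU.1 in PU.1− within 50 kb, 15 and 54 for PU.1 in PU.1+ within 5 kb and 50 kb, and 38 and 34 for CEBPA in PU.1− and PU.1+ within 5 kb. The ETS share in member peaks rose with the window searched, since longer windows hold more letters. For PU.1 it was 78.6% in the central 200 bp and in the whole peak in PU.1−, and 100% in the whole peak in PU.1+. For CEBPA it was 35.7% and 46.4% in PU.1−, and 28.6% and 47.6% in PU.1+.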

Other observations

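Pseudogenes named after ribosomal proteins were counted in the same way. Of 294 with such a name, 1 had a PU.1 promoter peak in each line and 5 had a CEBPA promoter peak in each (1.70%, 0.554 to 3.92). All protein-coding genes stood at 6.8% (PU.1−) and 8.19% (PU.1+) for PU.1, and at 19.4% and 16% for CEBPA. No share over other pseudogenes is given here, so whether these counts are particular to ribosomal protein pseudogenes cannot be told. Members with a small nucleolar RNA gene inside the body numbered 29. Of these 3 had a PU.1 promoter peak in PU.1− (10.3%, 2.19 to 27.4), against 11 of the 51 others (21.6%, 11.3 to 35.3), and 9 and 16 had a CEBPA promoter peak.

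Each line is 1 clone and each list 1 library, and clone, library and PU.1 status cannot be told apart. Annotated starts far from the main one brought Rpl11 and Rpl18 into the PU.1+ count.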
